A study of Mus musculus with 6 samples.

Results

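Matrix metalloproteinases and their inhibitors were examined in neural stem cell cultures from mice exposed before birth to MG, taken to be the methylglyoxal named in the study's title. The genes were the inhibitors Timp1, Timp2, Timp3, Timp4 and Reck and the proteases Mmp2, Mmp14, Mmp15, Mmp16 and Mmp17, each read from 1 probe set that names that gene alone, the one with the highest mean over the arrays. Of these 10 genes, 9 had such a probe set among the 22180 genes tested; Mmp15 is not analysed here. The set was chosen by measured values, since it was put together because Timp1 was lower on MG arrays. The MG to PBS values of all members are therefore a description, and no test of them is given.

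The 6 samples were neurospheres, floating colonies grown from the subependymal region of 2-month-old offspring of CD1 mice, an outbred stock, cultured for 7 days with EGF and FGF2. The MG group was 3 offspring whose mothers received MG at 0.5 mg/kg in 2 intraperitoneal injections a day from gestational day 12 to delivery. The PBS group was 3 offspring whose mothers received PBS on the same schedule. RNA was hybridised to 6 Affymetrix Mouse Gene 2.0 ST arrays, and the deposited values are on a log2 scale. The labels do not say whether offspring of a group shared a mother, so litter and injection cannot be told apart, and the spread within a group may be smaller than that between litters. The cultures carried neural stem and progenitor RNA: the 9 markers tested, which include Sox2, Nes and Fabp7, were all above the reference level of 5.02 in both groups, and their mean level was 10.60 to 10.67 on MG arrays and 10.55 to 10.63 on PBS arrays. That reference level is the value under which 95% of 1394 odorant and pheromone receptor genes, a set mostly silent outside sensory tissue, had their mean.

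Matrix metalloproteinases are zinc enzymes that cut proteins of the extracellular matrix and of the cell surface. Mmp14, Mmp15 and Mmp16 span the membrane, Mmp17 is held there by a lipid anchor, and Mmp2 is secreted as an inactive precursor. The Timp proteins block these enzymes by binding their active site, and Reck is a membrane-anchored inhibitor. Timp2 has a double part, because on the cell surface it can hold the Mmp2 precursor next to an Mmp14 molecule that activates it. In the adult subventricular zone, matrix and cell-surface proteolysis is known for its part in progenitor migration and in the release of growth factors.

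The promoters of Timp1, Timp2 and Timp3 are shown because these were the 3 members whose MG and PBS values did not overlap. The sequences are the 250 bases before the start site in RefSeq, build GRCm38.p6, written 5′ to 3′ on the strand of the gene. Timp1 lies at chrX:20869916-20870165 on the plus strand, Timp2 at chr11:118355412-118355661 on the minus strand and Timp3 at chr10:86300162-86300411 on the plus strand. Capitals mark matches, on either strand, to the ETS motif AGGAAG and the SP1 motif GGGCGG.
Timp1: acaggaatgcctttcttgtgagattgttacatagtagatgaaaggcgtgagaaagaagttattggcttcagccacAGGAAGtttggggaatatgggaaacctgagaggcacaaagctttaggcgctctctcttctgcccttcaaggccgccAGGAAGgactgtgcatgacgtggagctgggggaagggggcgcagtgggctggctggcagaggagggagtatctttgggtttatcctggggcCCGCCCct
Timp2: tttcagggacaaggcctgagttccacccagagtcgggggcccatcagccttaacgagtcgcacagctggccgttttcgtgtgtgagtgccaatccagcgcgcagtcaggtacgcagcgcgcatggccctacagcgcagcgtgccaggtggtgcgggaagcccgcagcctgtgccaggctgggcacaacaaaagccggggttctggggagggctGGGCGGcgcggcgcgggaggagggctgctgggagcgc
Timp3: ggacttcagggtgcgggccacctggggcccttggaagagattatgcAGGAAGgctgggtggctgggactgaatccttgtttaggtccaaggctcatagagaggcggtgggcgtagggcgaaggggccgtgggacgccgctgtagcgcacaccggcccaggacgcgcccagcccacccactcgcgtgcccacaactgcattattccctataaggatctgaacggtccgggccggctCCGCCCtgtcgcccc

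The Timp1 promoter held the ETS motif at 2 places, ending 170 and 94 bases before the start, and the SP1 motif once, 3 bases before it. The Timp2 promoter held the SP1 motif once, 32 bases before the start, and the Timp3 promoter held 1 match to each motif. No matches overlapped in these 3 sequences. Among 32851 promoters of the same length, 29.5% held the ETS motif and 32.7% the SP1 motif. The search also covered AP-1 (TGANTCA, in 6.75% of all promoters), STAT (TTCNNNGAA, in 7.02%) and the TATA box (TATAAA, in 12.4%), and the letters of these 3 are not in the 3 windows. The sequences also differ in CpG dinucleotides, with 6 in Timp1, 21 in Timp2 and 18 in Timp3, where the median over all promoters was 6.

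Timp1, a secreted inhibitor that many cells make after injury or cytokine stimulation and that acts poorly on proteases that span the membrane, was lower in MG cultures. Its log2 values were 5.72, 5.60 and 5.45 on MG arrays, against 6.05, 6.16 and 6.15 on PBS arrays. Every MG value lay below every PBS value, with 0.33 between the nearest pair. The means were 5.59 ± 0.13 in MG and 6.12 ± 0.06 in PBS (SD, n = 3 each), which differ by -0.53 on the log2 scale (standard error 0.12) or 1.45-fold. The gene was dim but measurable, since its lowest value stood 0.43 above the reference level. In a culture, fewer cells that make a transcript and less of it per cell cannot be told apart.

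Timp2, the inhibitor that also takes part in Mmp2 activation, was higher in MG cultures by about as much as Timp1 was lower. It read 8.76, 8.61 and 8.85 on MG arrays, against 8.01, 8.24 and 8.41 on PBS arrays. The groups again did not overlap, and the nearest values were 0.20 apart. Its means were 8.74 ± 0.13 in MG and 8.22 ± 0.20 in PBS (SD, n = 3 each), which differ by 0.52 on the log2 scale (standard error 0.14) or 1.43-fold. These were the lowest and the highest log2 differences among the 9 members.

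Timp3, which stays bound to the matrix and also inhibits ADAM and ADAMTS proteases, read 9.97, 10.12 and 9.89 in MG and 9.78, 9.84 and 9.81 in PBS. All MG values were above all PBS values, but by only 0.05 at the nearest pair, and the log2 difference of 0.19 had a 95% confidence interval from -0.08 to 0.45. Timp4, an inhibitor with a more restricted tissue range, read 8.65, 8.38 and 8.11 in MG and 7.86, 8.37 and 8.02 in PBS. Its groups overlapped, with a log2 difference of 0.29 and an interval from -0.13 to 0.72. The intervals come from limma's moderated fit, are for 1 gene at a time and are not adjusted for the number of genes.

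**Figure D1:**
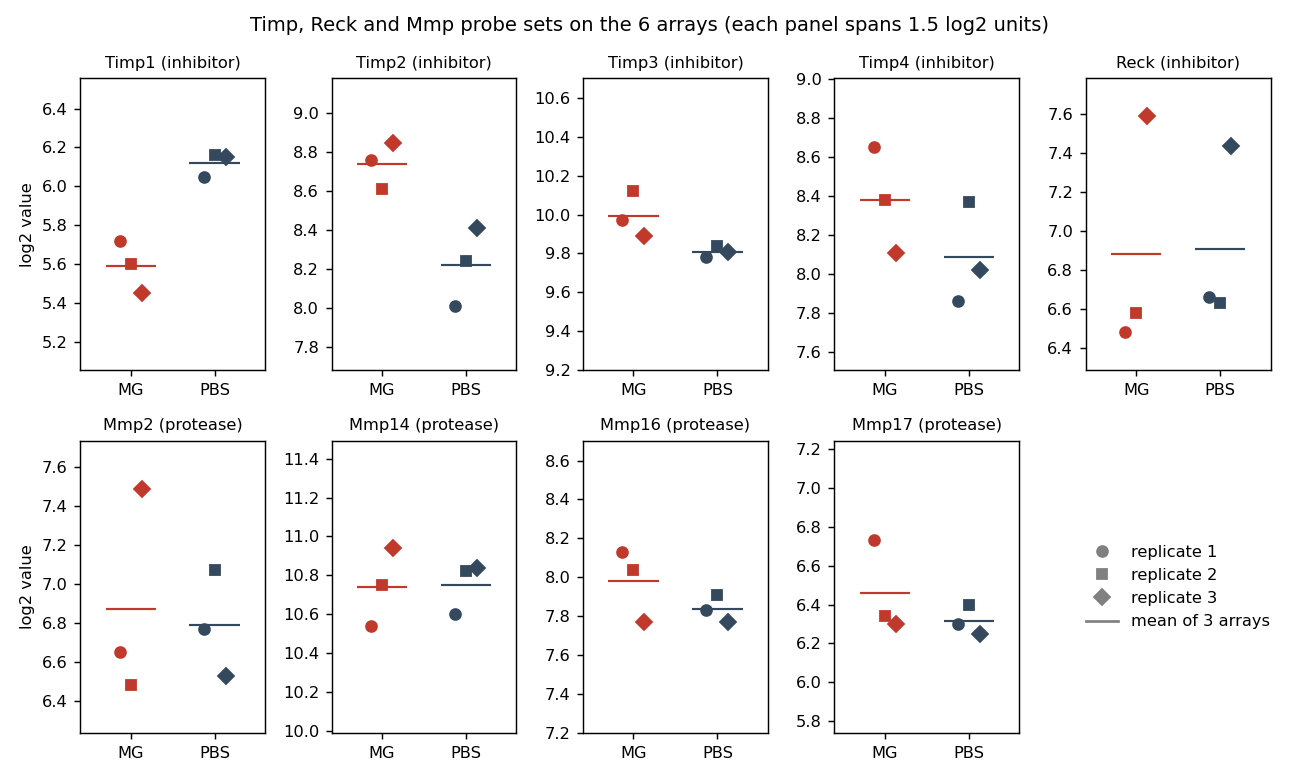
Log2 values of the 9 members (vertical axes, each spanning 1.5 log2 units) on the 3 MG arrays (left, red) and the 3 PBS arrays (right, dark blue); symbols give the replicate number and lines the group means. Timp1 is lower on all MG arrays, Timp2 and Timp3 are higher on all of them, and Reck is high in replicate 3 of both groups.

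Reck, which restrains Mmp2, Mmp9 and Mmp14 at the cell surface, was high in 1 culture of each group. It read 6.48, 6.58 and 7.59 in MG replicates 1, 2 and 3, against 6.66, 6.63 and 7.44 in PBS replicates 1, 2 and 3. The arrays numbered 3 of both groups were thus high and the other 4 lay between 6.48 and 6.66. The group means were 6.88 ± 0.62 in MG and 6.91 ± 0.46 in PBS (SD, n = 3 each), a log2 difference of -0.02 with an interval from -0.79 to 0.74. Among 13725 genes whose mean passed that reference level in MG and in PBS, 97.6% had a smaller SD than Reck among MG arrays and 95.9% among PBS arrays. For Timp1 these shares were 32.9% and 14.7%.

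The same 2 arrays stood apart in genes of DNA replication. The mean of 10 replication genes, each centred on its mean over the 6 arrays, was -0.14, -0.29 and 0.52 on MG arrays 1, 2 and 3 and -0.41, -0.14 and 0.47 on PBS arrays 1, 2 and 3. The part of this in the Reck values was not tested. The labels name no batch, so a replicate number is only a number here.

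Among the proteases, Mmp2, the secreted gelatinase, was high on 1 MG array. It read 6.65, 6.48 and 7.49 in MG and 6.77, 7.07 and 6.53 in PBS, so that MG replicate 3 lay above all other arrays and the rest overlapped. The log2 difference was 0.09, with an interval from -0.54 to 0.71, and without MG replicate 3 it was -0.22. The Mmp2 values thus gave no common direction.

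Mmp14, the main membrane-bound activator of the Mmp2 precursor, differed least between the groups. Its values were 10.54, 10.75 and 10.94 in MG and 10.60, 10.82 and 10.84 in PBS. The PBS values lay within the range of the MG values, at means of 10.74 ± 0.20 in MG and 10.75 ± 0.13 in PBS (SD, n = 3 each). The log2 difference was -0.01 and its interval, from -0.34 to 0.32, leaves room for a difference of about 1.26-fold either way.

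Mmp16, a membrane-type protease known from the nervous system, read 8.13, 8.04 and 7.77 in MG, against 7.83, 7.91 and 7.77 in PBS. Mmp17, the lipid-anchored one, read 6.73, 6.34 and 6.30 in MG, against 6.30, 6.40 and 6.25 in PBS. Both had the higher mean in MG, by 0.15 and 0.14 on the log2 scale, and both groups overlapped for each gene. In the 2 genes the arrays numbered 3 were the lowest of their groups. Of all pairs of members, Mmp16 and Mmp17 had the most similar pattern. Their root mean square difference over the 6 arrays after centring was 0.09. Timp1 differed from Timp2 by 0.55 on this measure, and the least similar pair, Timp4 and Reck, by 0.62.

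**Figure D2:**
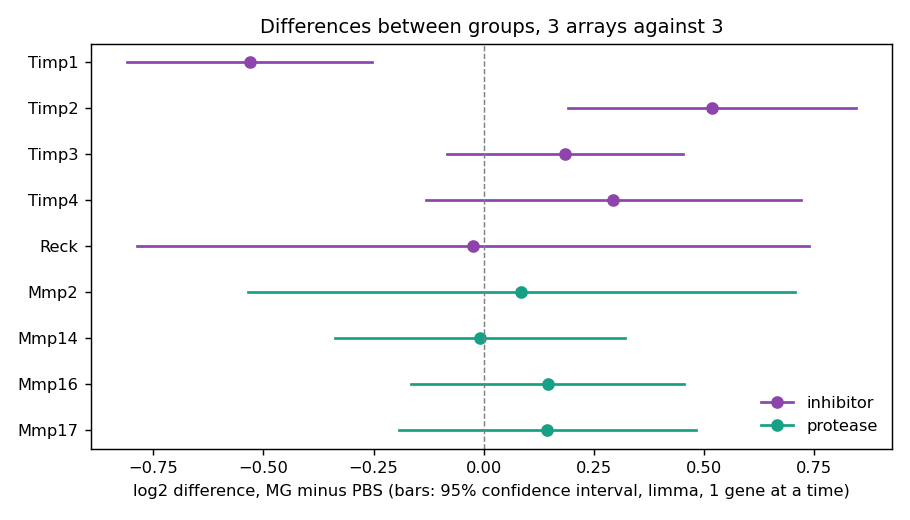
Log2 difference, MG minus PBS, of each member (points) with its 95% confidence interval from limma for 1 gene at a time (bars), inhibitors in purple and proteases in green. Timp1 lies at -0.53 and Timp2 at 0.52, while Mmp14 lies at -0.01.

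Over the members, 6 had a higher and 3 a lower mean in MG, where 53.8% of all genes tested had a higher and 46.2% a lower one. The members' median log2 difference was 0.14, and that of all 22180 genes was 0.01. The groups did not overlap in 3 of the 9. Timp2 and Timp3 had all MG arrays above all PBS arrays, which held for 4.03% of all genes tested, and Timp1 had them all below, which held for 3.31%. Since the set was built around the lower Timp1 values, nothing is read from these counts. In limma's moderated test of MG against PBS with Benjamini-Hochberg adjustment over all genes, 0 of the 22180 genes (0%) passed, and 712 (3.21%) had an unadjusted p under 0.05. All 9 members were above the reference level on all 6 arrays, and no filter on low values was applied.

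**Figure D3:**
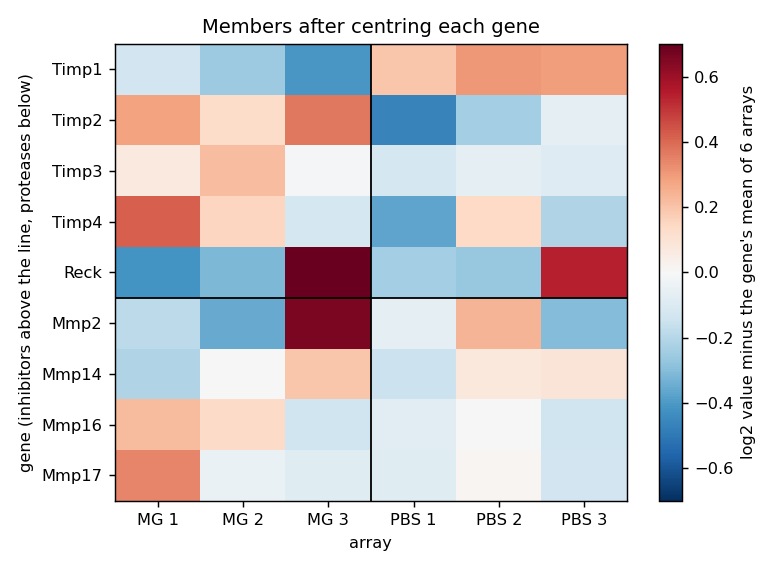
Log2 values of the 9 members after subtracting each gene's mean over the 6 arrays (colour scale), with MG arrays left of the vertical line, PBS arrays right of it, inhibitors above the horizontal line and proteases below. Timp1 is lower and Timp2 higher on all MG arrays than on all PBS arrays, and Reck is highest on MG 3 and PBS 3.

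The 5 inhibitor genes, each centred, had a mean of 0.04, -0.02 and 0.11 on MG arrays 1, 2 and 3, against -0.20, -0.02 and 0.09 on PBS arrays 1, 2 and 3. The 4 protease genes had a mean of 0.05, -0.06 and 0.16 on MG arrays, against -0.09, 0.08 and -0.12 on PBS arrays. The groups overlapped in both. The balance, inhibitors minus proteases, was -0.01, 0.05 and -0.05 on MG arrays 1, 2 and 3, against -0.11, -0.10 and 0.22 on PBS arrays 1, 2 and 3. The MG values lay within the range of the PBS values, and the group means were -0.00 ± 0.05 in MG and 0.00 ± 0.19 in PBS (SD, n = 3 each). Which range held the other depended on Reck. With the Timp genes alone, the balance ran from -0.20 to 0.12 in MG and from -0.10 to 0.10 in PBS. The mean of the inhibitors without Timp1 ran from 0.05 to 0.23 in MG and from -0.30 to 0.04 in PBS. The groups thus nearly met but did not overlap. Timp1 was picked for its lower MG values, so leaving it out raises this mean in MG relative to PBS. Nothing is read from this gap. With each gene weighted equally on a log scale, the mean differences of Timp1 and of the other Timp genes ran against each other. This balance counts transcripts and not protein or enzyme activity.

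Timp2 and Mmp14 act together on the Mmp2 precursor, and their values were set side by side. Timp2 minus Mmp14, both centred, was 0.48, 0.12 and 0.19 on MG arrays, against -0.32, -0.31 and -0.16 on PBS arrays. Since Mmp14 itself differed by -0.01, this restates the Timp2 values given above and adds nothing on a balance.

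**Figure D4:**
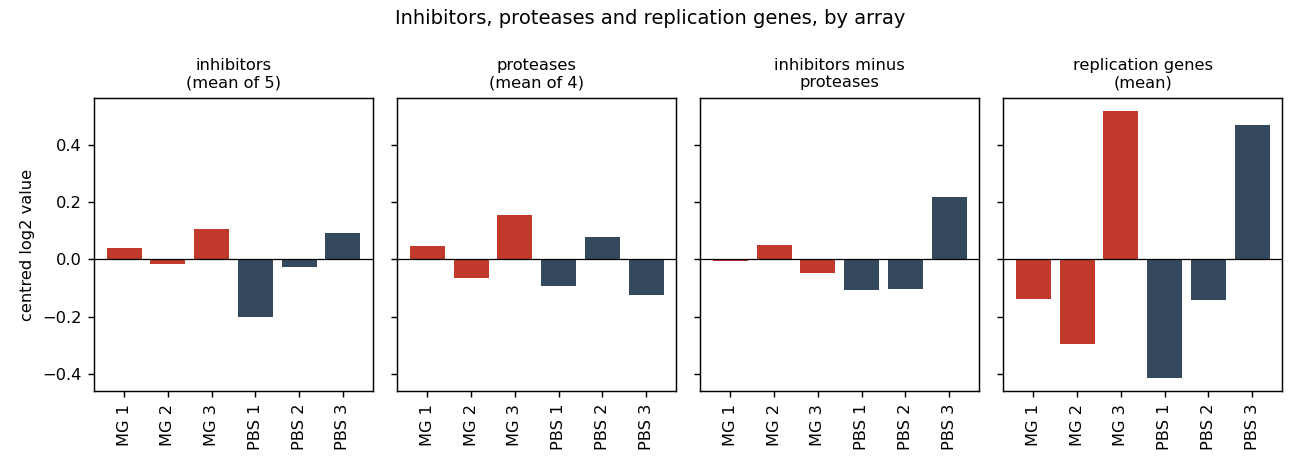
Centred log2 values on each array (MG in red on the left, PBS in dark blue on the right of each panel) for the mean of 5 inhibitors, the mean of 4 proteases, their difference, and the mean of 10 replication genes. The difference does not separate the groups, and replication genes are high on MG 3 and PBS 3.

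The 5 genes with the pattern most like Timp1 over the 6 arrays were Itga7, Zfp831, Tatdn1, Sh2d5 and Tgm1, among 12381 protein-coding genes above the reference level. Their root mean square differences from Timp1 after centring ran from 0.05 for Itga7 to 0.11 for Tgm1, where the median gene differed by 0.33. Itga7, an integrin subunit that binds laminin, read 7.98, 7.88 and 7.69 in MG and 8.17, 8.35 and 8.37 in PBS. For Timp2, the nearest were Phactr2, Celsr3, Blvra, Lipg and Gpd1, at 0.06 to 0.10. These genes were picked for their likeness to patterns that were themselves picked, so their group differences are no further evidence.

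In the RefSeq gene table, 3 of the Timp genes lie inside synapsin genes, which encode proteins of synaptic vesicles. Timp1 lies inside Syn1 and on the opposite strand, Timp3 inside Syn3, and Timp4 inside Syn2 on the opposite strand. Syn1 read 8.03, 8.73 and 8.53 in MG and 8.34, 8.27 and 8.30 in PBS, so that its groups overlapped where those of Timp1 did not. Its log2 difference was 0.13, that of Syn3 0.17 and that of Syn2 -0.08. Cep295nl, which overlaps Timp2, differed by -0.08 and its mean was below the reference level in both groups. Whether probes of the nested genes pick up RNA of their hosts was not tested.

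The rest of the protease and inhibitor system was read from 8 lists with 124 genes tested, of which 60 had higher and 64 lower means in MG. None passed limma's adjusted test, and 1 had an unadjusted p under 0.05, which is 0.806% of them against 3.21% of all genes tested. That gene was Dcn, which encodes the matrix proteoglycan decorin, at a log2 difference of -0.40 and an unadjusted p of 0.0126 in limma, with means of 3.57 in MG and 3.96 in PBS, both below the reference level. The median log2 difference over the lists was -0.02. All MG arrays lay above all PBS arrays in 4 of the 124 genes and below them in 7, where the shares over all genes tested were 4.03% and 3.31%.

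Of 18 other matrix metalloproteinases, 6 had higher and 12 lower means in MG (median -0.09), and 0 passed. Those with both group means above the reference level were Mmp11, Mmp19, Mmp23, Mmp24 and Mmp28, of which Mmp11, Mmp19 and Mmp28 are named after their values were seen. Mmp24, a membrane-type protease that cuts N-cadherin on adult mouse neural stem cells, read 6.05, 5.95 and 5.83 in MG and 5.62, 5.73 and 5.80 in PBS. All its MG values lay above its PBS values, by a narrow margin, with a log2 difference of 0.23 (standard error 0.12). The reverse held for Mmp11, at 5.84, 5.79 and 5.78 in MG and 5.85, 5.92 and 5.90 in PBS, and for Mmp10. Mmp10 is named after its values were seen and was below the reference level in both groups. Mmp23 differed by 0.20 and overlapped. Mmp9, the other gelatinase and also named after its values were seen, lay below the reference level in both groups, at 4.77 ± 0.13 in MG and 4.88 ± 0.13 in PBS (SD, n = 3 each).

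Of 12 ADAM genes, which encode membrane proteases that shed surface proteins and some relatives without activity, 5 had higher and 7 lower means, and 0 passed. Adam19 had a log2 difference of 0.29 and Adam22 one of 0.17. Adam19, like Reck, was highest on the arrays numbered 3, at 6.45, 6.49 and 7.15 in MG and 6.20, 6.17 and 6.85 in PBS. Of 23 ADAMTS and procollagen proteinase genes, 12 had higher and 11 lower means, and 0 passed. Adamts1, an aggrecan and versican protease, differed by -0.26 and Adamts10 by 0.27, and both overlapped between groups.

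Of 8 plasminogen activation genes, 1 had a higher and 7 lower means in MG (median -0.11), and 0 passed. Serpini1, the neuronal inhibitor neuroserpin, differed by -0.18 and Plau, the urokinase gene, by -0.10. Of 17 other partners of the metalloproteinases and Timps, 10 had higher and 7 lower means, and 0 passed. Thbs1, a matrix protein that binds Mmp2, read 5.99, 6.04 and 6.80 in MG and 5.78, 5.74 and 6.01 in PBS, a log2 difference of 0.43 (standard error 0.22). Pcsk6, a proprotein convertase, read 6.56, 6.57 and 6.55 in MG and 6.28, 6.45 and 6.18 in PBS, a difference of 0.26 without overlap.

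Of 24 matrix substrate genes, 19 had higher and 5 lower means in MG, where 53.8% of all genes had the higher mean, and 0 passed. Their median was 0.05. Ncan, which encodes neurocan, differed by 0.21 and Tnc, which encodes tenascin C, by -0.22, both with overlap. Of 19 genes of signalling known to act on Timp1, most of them transcription factors and cytokine receptors, with the ligand Tgfb1 and the signalling suppressor Socs3 among them, 5 had higher and 14 lower means (median -0.14), and 0 passed. Fosb, an AP-1 gene, read 6.91, 8.10 and 9.74 in MG and 8.18, 7.95 and 9.82 in PBS, a spread far wider than its log2 difference of -0.40. Tgfbr2, a TGF-beta receptor, differed by -0.45 and overlapped. Both were highest of their groups on the arrays numbered 3, where Timp1 had its lowest MG value and a PBS value close to its highest. In 2 of the 19 genes all MG arrays lay below all PBS arrays, and in 1 they all lay above. The shares over all genes tested were 3.31% and 4.03%.

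**Figure D5:**
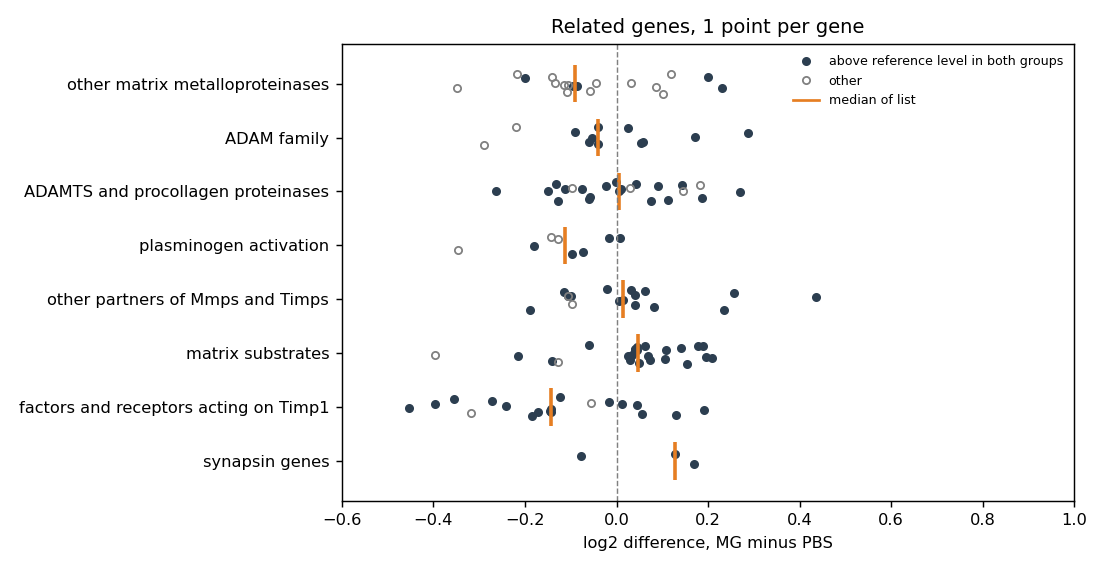
Log2 difference, MG minus PBS, of the genes of 8 related lists, 1 point per gene, filled where both group means were above the reference level and open otherwise; orange lines are list medians. The medians lie between -0.14 and 0.13, and no gene passed the adjusted test.

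Markers of other cells that make these proteins were read beside the members. Of 10 reactive astrocyte genes, the state in which Timp1 is known to be induced, 4 had higher and 6 lower means in MG, and 7 were above the reference level. Their centred mean was 0.00, -0.09 and -0.10 on MG arrays and 0.07, 0.07 and 0.05 on PBS arrays. All MG values of this mean lay below all PBS values. Without S100a10, which differed by -1.15, the mean was 0.06, -0.02 and -0.05 in MG. It was then -0.03, 0.05 and 0.00 in PBS, and the groups overlapped. The mean without S100a10 was not planned in advance. Gfap and Vim, the defining filament genes, differed by 0.13 and -0.05.

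Pericyte and fibroblast genes, 11 in number, had a mean level of 5.46 to 5.60 on MG arrays and 5.43 to 5.70 on PBS arrays. Of them, 4 had higher and 7 lower means in MG, and the members ran opposite ways. The contractile genes Acta2 and Tagln were higher in MG by 0.76 and 0.47, and Col1a1, a fibrillar collagen, differed by -0.26. Kcnj8, Dcn and Lum were in both groups below the reference level, and Pdgfrb was below it in MG (mean 4.99) and above it in PBS (5.16).

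Endothelial genes, 7 in number, had mean levels of 5.08 to 5.38 in MG and 5.11 to 5.54 in PBS, and 2 had higher and 5 lower means in MG. Cldn5 and Tek were in both groups below the reference level, and Esam was below it in MG (mean 4.55) and above it in PBS (5.07). Pecam1 and Cdh5 passed that level narrowly in each group, at log2 differences of -0.10 and -0.02. The higher means in MG were those of Flt1 (7.24 in MG, 7.04 in PBS) and Kdr (6.57 in MG, 6.47 in PBS), the brightest genes of the list. Microglial genes, 8 in number, had mean levels of 4.75 to 4.87 in MG and 4.81 to 4.90 in PBS, with 3 higher and 5 lower means in MG. Aif1, Tmem119, Itgam and Ptprc were in both groups below the reference level, and Csf1r was below it in MG (mean 4.88) and above it in PBS (5.13). Cx3cr1 (5.84 in MG, 5.94 in PBS), C1qa (5.60 in MG, 5.63 in PBS) and P2ry12 (5.41 in MG, 5.25 in PBS) exceeded that level in each group. The ranges of the groups overlapped in these 2 lists and in the pericyte list.

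Neuron markers, all 5 above the reference level, had higher means in MG in 4 of 5, with a median log2 difference of 0.20. Their centred mean was 0.26, 0.20 and -0.18 on MG arrays 1, 2 and 3 and -0.20, 0.04 and -0.11 on PBS arrays 1, 2 and 3. The 6 oligodendrocyte lineage markers tested, all above that level, had 3 higher and 3 lower means, with centred means of 0.24, 0.04 and -0.22 in MG and -0.03, 0.07 and -0.09 in PBS. In both lists MG replicate 1 was the highest of the MG arrays and MG replicate 3 the lowest, as for Timp1, Timp4, Mmp16 and Mmp17. The part of these cell types in the members' values was not tested.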

How the data were processed

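RNA of 6 neurosphere cultures, 3 MG and 3 PBS, was measured on Affymetrix Mouse Gene 2.0 ST arrays. The values deposited by the authors are log2, 1 per probe set and array, made with Partek 6.6 per the submitters' processing notes; of how they were background-corrected, normalised and summarised, the sources used here say nothing. The log2 scale was read from the range of the values, 0.73 to 13.81. Of 41345 probe sets, 23521 named 1 gene, 1814 several and 16010 none; symbols were updated through RefSeq (GRCm38.p6), which gave 22180 genes, with the brightest probe set taken per gene.

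MG was compared with PBS by limma 3.58.1 in R 4.3.3 (lmFit, eBayes, no covariate, two-sided, Benjamini-Hochberg over all genes, threshold 0.05). The code was run on simulated data with independent genes. That run is not used as evidence that differences as small as those of the members can be found. Figures were drawn with matplotlib 3.10.9. Members and lists were chosen with earlier results of these data known. From each list the text names genes with an unadjusted p under 0.05 and the 2 with the largest difference above the reference level, besides the 5 genes most like Timp1. Mmp9, Mmp10, Mmp11, Mmp19 and Mmp28 were named after their values were seen, and Syn2 because Timp4 lies inside it. The 5 most like Timp2 were added after the Timp2 values were seen, as was the pair of Timp2 and Mmp14. Not planned in advance were the mean of reactive astrocyte genes without S100a10, that of inhibitors without Timp1 and the balance with Timp genes alone. Alternatives were quantile normalisation, median centring, averaged probe sets, a filter on dim genes, another moderation, the replicate number as a block, and arrays left out. The number of arrays limits the precision, and the median standard error of a log2 difference was 0.15. No 2 arrays held identical values (Pearson r over probe sets 0.966 to 0.989). The labels state 3 mice per group.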

Additional observations from a re-analysis of the deposited data

How the results depend on the processing

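Over 12 settings, the log2 difference ran from -0.59 to -0.45 for Timp1 and from 0.42 to 0.61 for Timp2. Groups that do not overlap cannot change sign when an array is left out. The other moderation, the replicate block and averaged probe sets cannot change a member's difference, so these settings are no check of it. The signs of Reck (-0.38 to 0.24), Mmp2 (-0.36 to 0.28) and Mmp14 (-0.11 to 0.09) changed between settings. Without both arrays numbered 3, Mmp2 stood at -0.36. The inhibitor and protease balance differed by -0.00 and ran from -0.06 to 0.13. The adjusted threshold was passed by 0 genes in all 13 settings. Genes that differed at least 1.5-fold with an unadjusted p under 0.05 numbered 101, against 28 with dim genes left out, 208 without both arrays numbered 3 and 115 to 239 with 1 array left out. In the related lists, 1 gene had an unadjusted p under 0.05, against 0 with dim genes left out, 2 with median centring, 3 with quantile normalisation, 13 without both arrays numbered 3 and 1 to 7 with 1 array left out. The share over all genes tested is not given for the other settings, so nothing is read from the list counts. The cause of the changes in these counts was not tested. With the replicate number as a block the 2 counts were 127 and 6; deviations of same-numbered arrays correlated at 0.22, 0.04 and 0.45, so the numbers were not taken as pairs. Only arrays numbered 3 correlated best with their own number. Each member had 1 probe set, so no other could be tried.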
